A study of Mus musculus with 20 samples.

Results

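The genes described are 10 transporters of the hepatocyte membrane, most of which carry statins or bile acids, namely Slco1a1, Slco1a4, Slco1b2, Slco2b1, Slc10a1, Abcb11, Abcb4, Abcc2, Abcc3 and Abcg2. They were taken by symbol from 34933 named genes, with earlier results of these data known. All 10 were among the 12789 genes that passed the low-count filter. Poly(A) RNA was sequenced from whole liver of wild-type mice with diet-induced obesity (DIO). The mice received rosuvastatin plus GGOH (the combination), rosuvastatin, GGOH or vehicle, with 5 mice in each of the 4 groups and 1 library per mouse. All 4 groups, vehicle included, are obese, so no lean liver was compared. Rosuvastatin is a hydrophilic inhibitor of HMG-CoA reductase, the enzyme that makes mevalonate, and GGOH (geranylgeraniol) is an isoprenoid alcohol that cells can convert to the geranylgeranyl group lost when that enzyme is blocked. The labels state no dose, duration, route, sex, age or batch, and nothing in them says how the mice were housed or paired.

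Hepatocytes take up bile acids and many drugs from blood through carriers on the sinusoidal (basolateral) face and pass them into bile through ATP-driven pumps on the canalicular face. The Slco genes encode sodium-independent organic anion carriers, and Slc10a1 encodes the sodium-dependent bile acid carrier. Among the canalicular pumps, Abcb11 moves bile salts, Abcb4 moves phosphatidylcholine, Abcc2 moves glucuronide and glutathione conjugates, and Abcg2 moves sulfated and many anionic compounds. Abcc3 exports conjugates and bile acids back to blood. In humans, rosuvastatin is taken up by OATP1B1, OATP1B3, OATP2B1 and NTCP and leaves through ABCG2 and ABCC2. The comparison of statin-treated with untreated liver therefore asks whether the drug's own carriers are expressed differently under it.

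No transporter was called different in any of 8 comparisons at an adjusted p under 0.05 (edgeR quasi-likelihood F test, Benjamini-Hochberg over 12789 genes), nor with DESeq2. Over all genes the percentage called was 0 in 7 of them and 0.00782 in the averaged effect of GGOH, where 1 gene, Cyp2b10, was called; DESeq2 called 0 to 13 genes in a comparison. The largest statistical separation among the transporters was in Slco1b2, the main statin uptake carrier of mouse liver, which averaged 1567 ± 221 CPM in the 10 mice given rosuvastatin with or without GGOH and 2164 ± 529 CPM in the 10 mice without it (SD). All 10 statin mice lay below the median of the others, 2180 CPM, although the ranges overlapped, from 1248 to 1973 CPM with the statin and from 1162 to 2750 CPM without. The log2 fold change was -0.47 ± 0.15 (SE), with an adjusted p of 0.327 (edgeR). Its unadjusted p was under 0.05, as for 2 transporters of 10 and 14.4% of all genes in this averaged effect.

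The positions of the genes are from GENCODE M21 on GRCm38. Slco1b2 (ENSMUSG00000030236.10) lies at chr6:141629518-141686646 on the plus strand. Slco1a4 (ENSMUSG00000030237.14) and Slco1a1 (ENSMUSG00000041698.11) lie near it on the minus strand, at chr6:141805440-141856199 and chr6:141907282-141946962. Abcg2 (ENSMUSG00000029802.13) is on the same chromosome at chr6:58584523-58695676, plus strand. Slco2b1 (ENSMUSG00000030737.17) is at chr7:99657804-99711340, minus strand, and Slc10a1 (ENSMUSG00000021135.8) at chr12:80953183-80968705, minus strand. Abcb11 (ENSMUSG00000027048.15) is at chr2:69238282-69342616, minus strand, and Abcb4 (ENSMUSG00000042476.12) at chr5:8893717-8959231, plus strand. Abcc2 (ENSMUSG00000025194.5) is at chr19:43782192-43840740, plus strand, and Abcc3 (ENSMUSG00000020865.16) at chr11:94343295-94392997, minus strand.

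The promoters of 4 carriers are shown because Slco1b2 and Slc10a1 were the most abundant transporters, Slco1a1 varied most between mice, and Abcb11 is a known direct target of FXR, the nuclear receptor for bile acids. Each run is the 150 bases just before the gene's start, read 5′ to 3′ on the gene's own strand (RefSeq, GRCm38.p6). The windows are chr6:141629368-141629517 on the plus strand for Slco1b2, and chr12:80968706-80968855, chr6:141946963-141947112 and chr2:69342617-69342766 on the minus strand for Slc10a1, Slco1a1 and Abcb11. Capitals mark matches to 3 motifs searched on both strands, which are AGGTCANTGACCT (the FXR inverted repeat, up to 3 mismatches), the HNF1 palindrome (up to 3 mismatches) and TATAAA (no mismatch, shown as its reverse complement where it lies on the other strand).
Slco1b2: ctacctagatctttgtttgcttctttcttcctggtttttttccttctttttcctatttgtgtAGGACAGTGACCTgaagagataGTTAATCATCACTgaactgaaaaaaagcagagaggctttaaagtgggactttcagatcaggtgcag
Slc10a1: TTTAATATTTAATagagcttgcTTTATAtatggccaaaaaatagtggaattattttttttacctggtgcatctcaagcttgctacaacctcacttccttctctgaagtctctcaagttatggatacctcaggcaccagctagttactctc
Slco1a1: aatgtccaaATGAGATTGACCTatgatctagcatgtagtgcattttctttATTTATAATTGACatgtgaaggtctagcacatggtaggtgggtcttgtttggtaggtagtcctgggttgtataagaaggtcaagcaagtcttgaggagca
Abcb11: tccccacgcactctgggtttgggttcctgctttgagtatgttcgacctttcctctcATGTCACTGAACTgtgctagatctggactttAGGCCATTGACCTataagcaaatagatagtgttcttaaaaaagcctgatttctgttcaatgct

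Abcb11 held 2 matches to the FXR repeat, starting 94 and 63 bases before the gene's start with 2 mismatches and 1 mismatch. Slco1b2 held 1, starting 88 bases before its start with 1 mismatch, and next to it an HNF1 match with 3 mismatches. In Slco1a1 the TATA match lay inside the HNF1 match. The search covered windows of 250 bases before to 50 after each start, of which the table held 14 for 9 of the transporters. The FXR repeat was in 6 of these 14 and in 11.4% of all 32851 promoters, the HNF1 palindrome in 5 of 14 and 8.33%, and TATAAA in 5 of 14 and 13.6%. The antioxidant response element TGACNNNGC was in 1 of 14, that of Abcc2, and in 12.4% of all promoters. These are matches of letters and describe no binding.

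The libraries held 8548120 to 18373913 estimated counts each (median 15697884.5). Together the 10 transporters held 0.259 to 0.387% of the counts of a library. Combination mice 2 and 3 stood apart in their mitochondrial share of counts, 27.9 and 29.2%, against 8.06 to 17.1% in the other 18 libraries, and vehicle mouse 1 lay farthest out on the first component of all genes within groups, which held 35.5% of the variance. Transporter fold changes printed from edgeR that moved by over 1.5 times without these 3 libraries are given with and without them. Hepatocyte markers stood above those of other cell types in these livers. The summed TPM of 7 hepatocyte genes was 24470 to 56553 in the combination, 31545 to 55450 under rosuvastatin, 34508 to 41766 under GGOH and 26374 to 70370 in vehicle. In any library the sum was at most 171 for 7 bile duct genes, of which Spp1 reached 159. It was at most 366 for 7 Kupffer cell genes and 391 for 7 stellate cell genes. For 4 adipocyte genes it was at most 2333, of which Car3 reached 2318. The summed TPM of 8 pericentral hepatocyte genes was 2763 to 5101 in the combination, 3212 to 5874 under rosuvastatin, 2436 to 4858 under GGOH and 2583 to 7038 in vehicle. In the averaged statin effect 6 of 7 sinusoidal endothelial genes lay above 0 (51.8% of all genes), with a median of 0.18 (all genes 0.01), and 3 had an unadjusted p under 0.05 (14.4% of all genes). Their summed TPM was 101 to 137 in the combination, 116 to 136 under rosuvastatin, 97.4 to 129 under GGOH and 87.0 to 141 in vehicle. All 4 T cell genes lay above 0 (median 0.90) and 2 had such a p, with a summed TPM of 2.83 to 5.16 in the combination, 2.41 to 9.53 under rosuvastatin, 1.06 to 2.71 under GGOH and 0.61 to 3.31 in vehicle. No gene of the hepatocyte, bile duct, pericentral, endothelial and T cell lists was at 0 throughout a group, and edgeR and DESeq2 called 0 of them. In the same averaged effect all 3 neutrophil genes tested lay below 0 (48.2% of all genes), with a median of -0.89. So did 6 of 7 Kupffer cell genes (median -0.07) and 4 of 6 bile duct genes tested (median -0.16). Of these, 1 bile duct gene had such a p. Of 7 stellate cell genes, 4 lay above 0 (median 0.07) and 1 had such a p. The part of all these lists in the transporter values was not tested. In whole liver, fewer cells of a type and less RNA per cell cannot be told apart. Cholesterol synthesis genes, which respond to loss of the pathway's product, had a log2 fold change above 0 for rosuvastatin against vehicle in 19 of 20 cases (47.3% of all genes), with a median of 1.11 (all genes -0.02). Of these 20, 0 passed the test in edgeR or DESeq2, and 17 had an unadjusted p under 0.05. In the combination against vehicle 18 of the 20 lay above 0, with a median of 0.32 and 0 at an unadjusted p under 0.05, and in the combination against GGOH 19 of 20 did, with a median of 0.58 and 1 at that p. In the combination against rosuvastatin 0 of 20 lay above 0, with a median of -0.82 and 3 at that p, and edgeR and DESeq2 called 0 in each of these comparisons. The median of all genes was 0.01 in these 3 comparisons. The averaged statin effects below pool the combination and rosuvastatin groups.

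Per length, Slco1b2 was the most abundant of the 10 transporters in every group. Its TPM (a level scaled for transcript length and library size) averaged 503 ± 86.8 in the combination, 508 ± 59.6 under rosuvastatin, 667 ± 117 under GGOH and 584 ± 38.7 in vehicle (SD, n = 5 each). Slc10a1 came next, at 305 ± 37.4 TPM in the combination, 316 ± 52.5 under rosuvastatin, 314 ± 58.8 under GGOH and 335 ± 183 in vehicle (SD, n = 5 each). The ranges of these carriers overlapped each other only in vehicle, where Slc10a1 reached 600 TPM in mouse 1, and both stood above the ranges of the other 8 transporters in all 4 groups. In vehicle the rest followed in the order Abcb11 (63.3 ± 9.84 TPM), Abcb4 (44.7 ± 16.8), Abcc3 (34.4 ± 8.91), Slco1a1 (32.6 ± 19.1), Abcc2 (29.8 ± 20.4), Abcg2 (27.3 ± 5.84), Slco2b1 (23.7 ± 15.6) and Slco1a4 (21.4 ± 17.3). From the third place down, neighbours in the order overlapped in every group. Slco1b2 made up 89.4 ± 4.24% of the summed TPM of the 4 Slco carriers in the combination, 88.1 ± 1.77% under rosuvastatin, 90.5 ± 3.67% under GGOH and 88.3 ± 4.25% in vehicle.

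**Figure D1:**
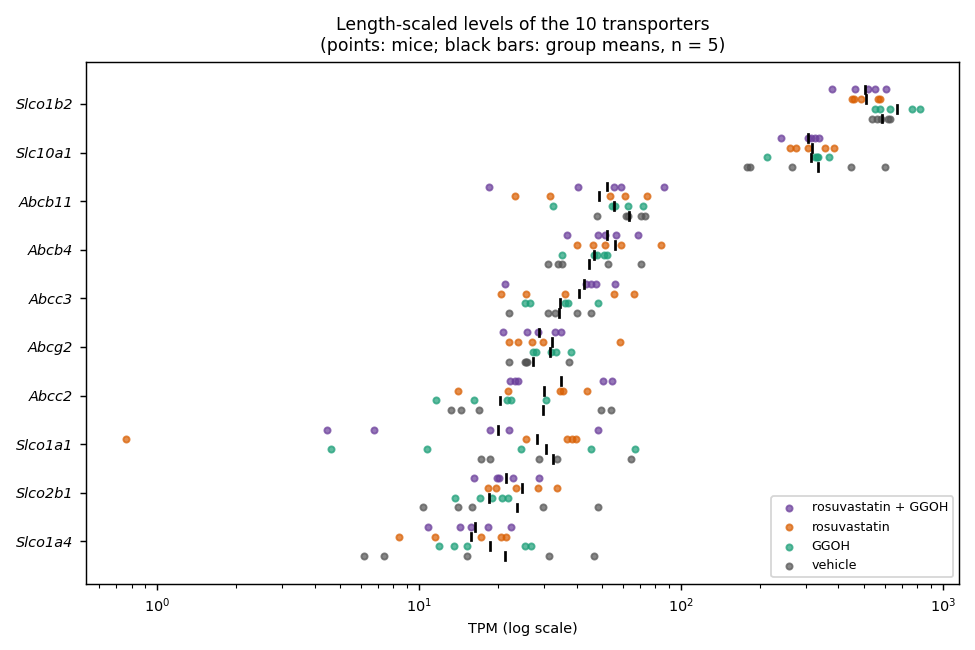
TPM (log axis) of the 10 transporters, 1 point per mouse coloured by group, with group means as black bars (n = 5 each). Slco1b2 and Slc10a1 lie above the other 8 in every group, and Slco1a1 spans the widest range, from 0.76 to 67.1 TPM.

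Group differences were tested on counts, given below as CPM (counts relative to library size after TMM scaling, not length-scaled, so comparable between mice for 1 gene). Slco1b2 had 1423, 1554, 1501, 1973 and 1489 CPM in combination mice and 1586, 1628, 1377, 1886 and 1248 CPM in rosuvastatin mice. It had 1999, 1883, 2506, 2705 and 1914 CPM in GGOH mice and 1162, 2708, 1655, 2361 and 2750 CPM in vehicle mice. On CPM the combination mice lay below the GGOH mice except for mouse 4, and vehicle mouse 1 was the lowest of all 20. In TPM vehicle mouse 1 had 535, and the lowest was combination mouse 1 at 378. The vehicle mice spanned only 535 to 628 TPM, while their TMM factors ran from 0.761 (mouse 5) to 1.25 (mouse 1).

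For rosuvastatin against vehicle, Slco1b2 had a log2 fold change of -0.46 ± 0.22 (adjusted p = 0.973, edgeR). It was the 1 transporter of 10 with an unadjusted p under 0.05, against 3.69% of all genes. For the combination against GGOH the value was -0.47 ± 0.22 (adjusted p = 0.351), and for the combination against vehicle -0.42 ± 0.22 (adjusted p = 0.817). The interaction, the statin effect with GGOH minus that without, lay within 1 SE of 0, with an approximate 95% interval of -0.61 to 0.59.

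On the TPM scale the averaged statin effect on Slco1b2 was -0.31 ± 0.11 (limma on log2(TPM + 1), adjusted p = 0.643), and the exact permutation test of log2(TPM + 1) gave a two-sided p of 0.0317 for the combination against GGOH and 0.0635 for rosuvastatin against vehicle. With 5 mice against 5, that test cannot give a p below 0.00794. Within groups, Slco1b2 CPM was lower in mice that lay toward vehicle mouse 1 on the first component of all genes (r = -0.75, rho = -0.657, 20 mice, permutation p = 0.00436 and 0.0133, adjusted over 40 relations 0.0249 and 0.0655, and r = -0.65 without the 2 farthest mice). On log2(TPM + 1) that r was -0.07 (rho = -0.05, permutation p = 0.748 and 0.83, adjusted 0.92 and 0.878). The part of this axis in the statin difference was not tested. Leaving out vehicle mouse 1 and combination mice 2 and 3 gave -0.52 ± 0.15 for the averaged effect (adjusted p = 0.247).

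Slc10a1, which takes up conjugated bile acids with sodium, had 581, 408, 441, 527 and 447 CPM in combination mice and 462, 467, 457, 582 and 387 CPM in rosuvastatin mice. It had 386, 482, 603, 544 and 546 CPM in GGOH mice and 643, 393, 597, 560 and 419 CPM in vehicle mice. All 4 groups overlapped. The averaged statin effect was -0.12 ± 0.12 (approximate 95% interval -0.36 to 0.12, adjusted p = 0.598), -0.0146 without the 3 libraries, and on the TPM scale its sign was the opposite, 0.02.

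Slco1a1, a male-predominant carrier of mouse liver, spread more between mice than between groups. It had 198, 17.0, 21.1, 79.5 and 55.3 CPM in combination mice and 96.6, 153, 103, 137 and 2.16 CPM in rosuvastatin mice. It had 275, 15.6, 91.9, 39.5 and 164 CPM in GGOH mice and 44.2, 166, 52.0, 303 and 151 CPM in vehicle mice. Every group held mice above 150 CPM and mice below 53, and rosuvastatin mouse 5 was lowest of all. The averaged statin effect was -0.60 ± 0.58 (approximate 95% interval -1.73 to 0.53), and the combination against vehicle gave -0.95 ± 0.82 (adjusted p = 0.817), and -0.57 ± 0.92 without the 3 libraries. The summed TPM of 10 male-predominant liver genes ranged from 5219 to 13388 in the combination, 7358 to 21729 under rosuvastatin, 10004 to 27995 under GGOH and 8837 to 19465 in vehicle, and none of the 10 was at 0 in any whole group. Most of this sum was Mup20, with a median of 11461.5 TPM over all libraries, against 307 for Cyp2d9, the next highest. The Y-linked Ddx3y, Kdm5d, Uty and Eif2s3y were above 0 in all 20 libraries (Eif2s3y at 27.0 to 39.7 TPM), so all livers were male by these genes. The part of the male-predominant genes in the Slco1a1 values was not tested.

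Slco1a4, a carrier that in mice responds to the xenobiotic receptor PXR, had 55.9, 32.4, 39.7, 45.3 and 42.7 CPM in combination mice and 55.9, 27.0, 29.2, 40.0 and 52.0 CPM in rosuvastatin mice. It had 46.8, 44.1, 82.7, 80.0 and 36.7 CPM in GGOH mice and 67.8, 33.7, 73.7, 64.1 and 32.4 CPM in vehicle mice. The 5 values above 60 CPM all came from mice without the statin, but the lower ones overlapped. The averaged statin effect was -0.42 ± 0.20 (adjusted p = 0.341), -0.12 ± 0.29 on the TPM scale and -0.29 ± 0.22 without the 3 libraries. With Slco1b2 it made 2 transporters of 10 with an unadjusted p under 0.05 in this averaged comparison, against 14.4% of all genes.

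Slco2b1, the mouse counterpart of the OATP2B1 carrier of human liver and gut, lay between 60.6 and 84.4 CPM in combination mice, 61.1 and 86.8 under rosuvastatin, 52.8 and 71.5 under GGOH and 56.1 and 94.7 in vehicle. Its averaged statin effect was 0.04 ± 0.11, with an approximate 95% interval of -0.16 to 0.25. GGOH averaged over the statin gave -0.17 ± 0.11 (adjusted p = 1.00), the only effect of GGOH so averaged that was at least 1 SE from 0 among the 10 transporters. In that comparison 0 transporters had an unadjusted p under 0.05, against 1.7% of all genes.

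**Figure D2:**
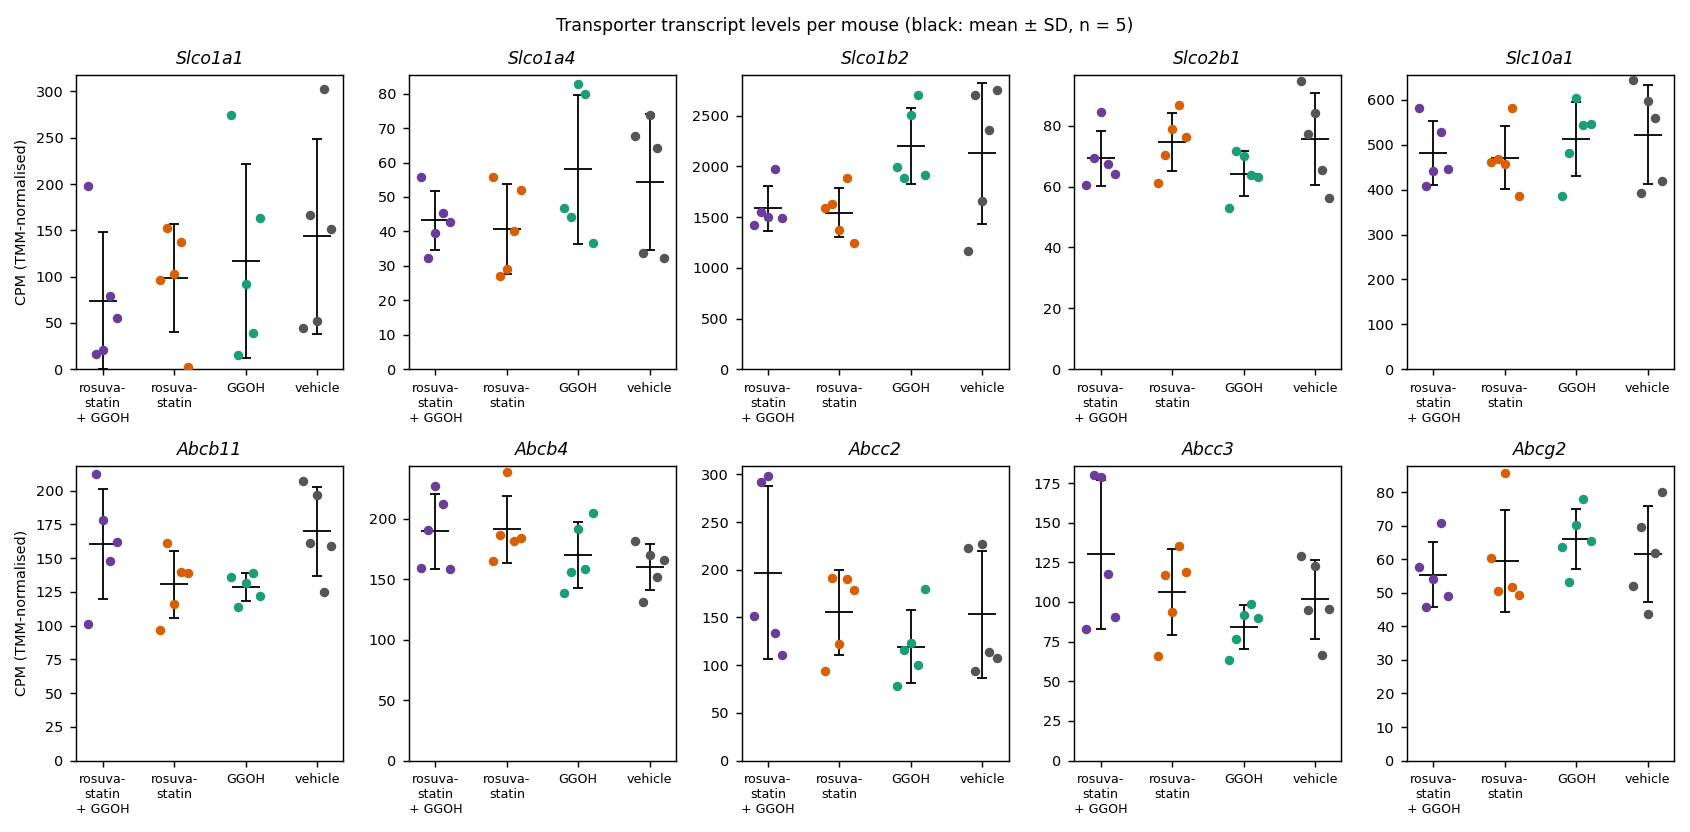
TMM-normalised CPM of each transporter by mouse, with black mean ± SD for the 5 mice of each group and axes that start at 0. Slco1b2 averages 1588 and 1545 CPM in the statin groups and 2202 and 2127 CPM in the GGOH and vehicle groups, with overlapping points, and combination mice 2 and 3 are the 2 highest points for Abcc2 and Abcc3.

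Abcb11, the bile salt export pump, had 101, 213, 178, 148 and 162 CPM in combination mice and 96.9, 161, 116, 139 and 139 CPM in rosuvastatin mice. It had 136, 114, 132, 139 and 122 CPM in GGOH mice and 207, 161, 196, 125 and 159 CPM in vehicle mice. The means were 160.4 ± 40.9 CPM in the combination, 130.5 ± 24.5 under rosuvastatin, 129 ± 10.5 under GGOH and 169.8 ± 32.8 in vehicle (SD, n = 5 each), and each group overlapped vehicle. GGOH against vehicle gave -0.40 ± 0.19 (adjusted p = 1.00), the 1 transporter of 10 with an unadjusted p under 0.05 in that comparison against 2.86% of all genes. Rosuvastatin against vehicle gave -0.38 ± 0.19 (adjusted p = 0.973), and the averaged statin effect was -0.03 ± 0.13, or -0.10 ± 0.13 without the 3 libraries.

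The interaction for Abcb11 was 0.70 ± 0.26 (adjusted p = 0.999), again 1 transporter of 10 with an unadjusted p under 0.05 against 2.89% of all genes. On the TPM scale the interaction was 0.27 ± 0.47, and without the 3 libraries 0.37 ± 0.25. The sign depended on the scale for the combination against GGOH, which was 0.32 ± 0.19 on counts, 0.09 ± 0.19 without the 3 libraries and -0.20 ± 0.33 on log2(TPM + 1). In TPM, Abcb11 had 18.6, 55.7, 40.6, 59.2 and 86.6 in combination mice, 23.3, 53.5, 31.7, 61.4 and 74.2 in rosuvastatin mice, 63.1, 54.6, 55.9, 71.6 and 32.5 in GGOH mice, and 63.1, 72.8, 70.6, 47.7 and 62.1 in vehicle mice. The statin groups were the wider ones on this scale.

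Abcb4, the canalicular phospholipid pump, had 160, 191, 227, 212 and 158 CPM in combination mice and 165, 186, 239, 182 and 184 CPM in rosuvastatin mice. It had 139, 156, 192, 159 and 205 CPM in GGOH mice and 182, 131, 170, 152 and 166 CPM in vehicle mice. The averaged statin effect was 0.21 ± 0.11 (adjusted p = 0.358), and 8 of 10 statin mice lay above the median of those without.

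Abcc2, the canalicular conjugate pump, had 151, 292, 298, 133 and 111 CPM in combination mice and 93.5, 192, 123, 190 and 179 CPM in rosuvastatin mice. It had 78.0, 116, 123, 100.2 and 180 CPM in GGOH mice and 223, 94.1, 227, 114 and 107 CPM in vehicle mice. The 2 highest CPM values were those of combination mice 2 and 3, the libraries with the large mitochondrial share. In TPM vehicle mouse 3 (54.3) lay between them (54.5 and 50.5). The combination against GGOH gave 0.72 ± 0.32 (adjusted p = 0.348), and 0.14 ± 0.30 without the 3 libraries. Within groups, Abcc2 TPM had a correlation of 0.574 with the mitochondrial share (Spearman 0.553, 20 mice, permutation p = 0.00356 and 0.00914, adjusted over 40 relations 0.0285 and 0.0731, and 0.568 without the 2 libraries farthest from the median share).

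Abcg2, the pump that exports rosuvastatin in humans, lay between 45.7 and 70.7 CPM in combination mice, 49.3 and 85.7 under rosuvastatin, 53.4 and 77.8 under GGOH and 43.7 and 80.0 in vehicle. Its averaged statin effect was -0.15 ± 0.13 (approximate 95% interval -0.40 to 0.10) on counts and 0.0041 on the TPM scale.

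Abcc3, the basolateral exporter, had 83.1, 180.0, 179, 117 and 90.6 CPM in combination mice and 66.2, 117, 93.7, 135 and 119 CPM in rosuvastatin mice. It had 63.5, 76.9, 91.7, 98.6 and 90.2 CPM in GGOH mice and 129, 94.8, 123, 66.5 and 95.5 CPM in vehicle mice. Again combination mice 2 and 3 were highest on CPM. In TPM they had 45.4 and 43.6, and the highest was rosuvastatin mouse 5 at 66.0. The combination against GGOH gave 0.63 ± 0.24 (adjusted p = 0.348), 0.26 ± 0.30 on log2(TPM + 1) and 0.20 ± 0.23 without the 3 libraries. With Slco1b2 and Abcc2 it made 3 transporters of 10 with an unadjusted p under 0.05, against 14% of all genes. The averaged statin effects were 0.35 ± 0.17 for Abcc3 (adjusted p = 0.346) and 0.37 ± 0.23 for Abcc2 (adjusted p = 0.396). Without the 3 libraries they were 0.19 ± 0.15 (adjusted p = 0.511) and 0.18 ± 0.21 (adjusted p = 0.661).

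Adding GGOH to the statin was compared in the combination against rosuvastatin. There 0 transporters of 10 had an unadjusted p under 0.05, against 1.69% of all genes. The 3 that lay at least 1 SE from 0 were Abcc2 (0.34 ± 0.32), Abcb11 (0.30 ± 0.19) and Abcc3 (0.29 ± 0.24), each with an adjusted p of 1.00. Without the 3 libraries Abcc2 and Abcc3 turned to -0.24 ± 0.31 and -0.13 ± 0.23, and Abcb11 was 0.07 ± 0.19. The combination against vehicle likewise had 0 transporters with an unadjusted p under 0.05, against 5.5% of all genes. These comparisons share groups of mice and are not independent of each other.

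**Figure D3:**
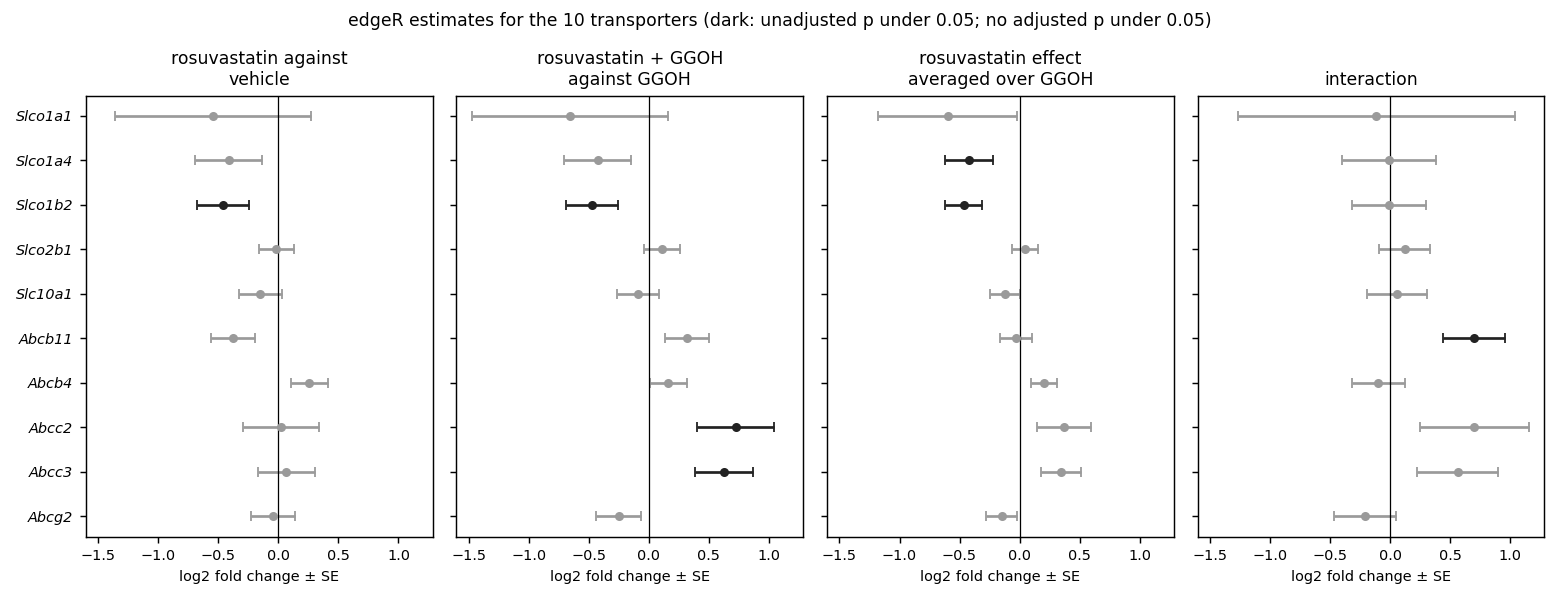
Log2 fold changes ± SE (edgeR) of the 10 transporters in 4 comparisons, with the vertical line at 0 and dark points for an unadjusted p under 0.05. The averaged statin effect on Slco1b2 is -0.47 ± 0.15, no adjusted p is under 0.05, and the widest bars are those of Slco1a1.

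Count and TPM of a gene differ by the length of the transcripts to which its reads were assigned and by the scaling of the library. With libraries scaled to each other, the count per TPM differed between the highest and lowest library by 3.00-fold for Abcb11, 2.52-fold for Abcc3 and 1.81-fold for Slco1a4. It differed by 1.03-fold for Slco1b2 and 1.02-fold for Slc10a1. The median over 9176 genes with over 20 counts in every library was 1.25-fold, and 11.8% of them reached 2-fold. The Abcb11 ratio was highest in combination mice 1 and 3, rosuvastatin mouse 3 and vehicle mouse 1. Within groups it moved with that of Abcc3 (r = 0.950, Spearman 0.967) and against that of Slco1a4 (r = -0.929, Spearman -0.946), over 20 mice, each with a permutation p of 1e-05, the smallest the resamples can give, adjusted to 2e-05 over 6 relations. Without the 2 mice farthest from the median these were 0.926 and -0.891. GENCODE lists for Abcb11 3 coding transcripts of 4893 to 5025 bases and a processed transcript of 648 bases, and the deposited gene tables do not show which transcripts the reads went to.

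**Figure D4:**
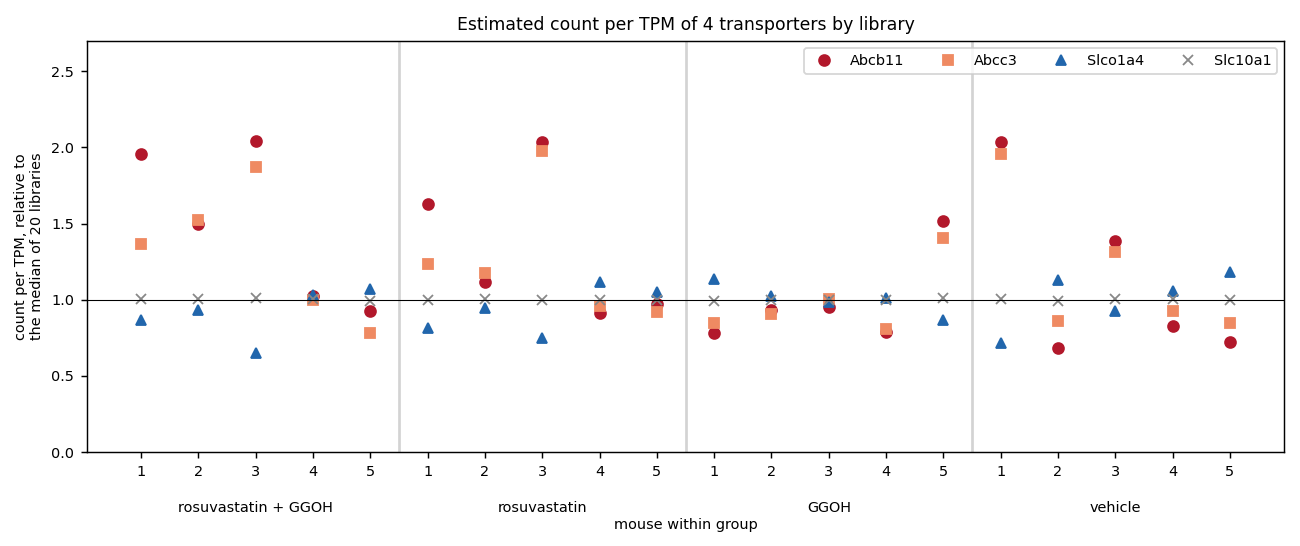
Estimated count per TPM in each of the 20 libraries, relative to each gene's median library, for Abcb11, Abcc3, Slco1a4 and Slc10a1. Abcb11 and Abcc3 are high in the same libraries and Slco1a4 is low in them, while Slc10a1 stays near 1 with a highest over lowest ratio of 1.02.

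Reads of some carriers can be shared with other genes. Of the 31-base words in their GENCODE transcripts, 5.03% in Slco1a4 were also in another gene (mostly Slco1a5). In Abcb4 these were 4.74% (most often Abcb1a) and in Slco1a1 4.00% (mostly Slco1a4). They were 2.76% in Abcg2 (most often Gm13236), 2.69% in Slc10a1 (most often Gm42556) and 0.224% in Abcc2 (most often Nfasc). Slco1b2, Slco2b1, Abcb11 and Abcc3 shared none.

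Among mice of the same group, Abcb11 and Abcc3 moved together. With group means removed from log2(TPM + 1), their Pearson r was 0.882 and Spearman rho 0.833 over 20 mice (permutation p = 2e-05 and 3e-05, adjusted over 45 pairs 0.00045 and 0.00112). It was 0.799 without the 2 mice farthest from the median, and 0.824 on log2 CPM. This was the 1 pair of 45 called on both scales, among 11 called on TPM and 3 on CPM. The share of pairs called among all genes was not computed, so these counts cannot be called particular to the transporters. The other 2 called on CPM were Abcc2 with Abcc3 (r = 0.823, rho = 0.827, permutation p = 0.00035 and 0.00044, adjusted 0.00787 and 0.0099, and 0.768 without the 2 farthest mice) and Slco2b1 with Abcc3 (r = 0.701, rho = 0.678, permutation p = 0.00121 and 0.00298, adjusted 0.0181 and 0.0447, and 0.775 without the 2 farthest mice). Slco2b1 and Abcb4 had an r of 0.907 on TPM (rho = 0.875, permutation p = 2e-05 and 5e-05, adjusted 0.00045 and 0.00112), 0.895 without the 2 farthest mice and 0.472 on CPM (adjusted p = 0.162). Slco1a1 ran opposite to Abcc3, with r = -0.65 and rho = -0.647 on TPM (permutation p = 0.00416 and 0.00314, adjusted 0.0234 and 0.0283), -0.586 without the 2 farthest mice and -0.508 on CPM (adjusted p = 0.162). Several transporters followed the first component of all genes within groups, the axis on which vehicle mouse 1 lay farthest out and which is computed with the transporters included. For Abcc2 the r was 0.899 on TPM (rho = 0.907, permutation p = 0.00014 and 0.00017, adjusted over 40 relations 0.00187 and 0.0068, 0.893 without the 2 farthest mice) and 0.862 on CPM (adjusted p = 0.0064). For Slco2b1 it was 0.874 on TPM (rho = 0.823, permutation p = 7e-05 and 0.00053, adjusted 0.0016 and 0.00707, 0.801 without the 2 farthest mice) and 0.776 on CPM (adjusted p = 0.016). For Abcb4 it was 0.820 on TPM (rho = 0.803, permutation p = 8e-05 and 0.00047, adjusted 0.0016 and 0.00707, 0.717 without the 2 farthest mice) and 0.666 on CPM (adjusted p = 0.0188). Abcc3 had 0.652 on CPM (adjusted p = 0.0249) and 0.269 on TPM (adjusted p = 0.429). The pairs of Abcc2 with Abcc3 and of Slco2b1 with Abcb4 or Abcc3 thus join genes that shared this axis on at least 1 scale, and the part of the axis in those pairs was not tested. For Abcb11 with Abcc3, the counts per TPM were themselves correlated (r = 0.950). Abcb11 TPM ran opposite to its own count per TPM (r = -0.630, rho = -0.642, permutation p = 0.0021 and 0.00318, adjusted over 40 relations 0.021 and 0.0318). On log2 CPM that r was -0.02. The part of this ratio in the pair was not tested. The labels give no batch within which these relations could be computed, and groups of 5 are too small for a value each.

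**Figure D5:**
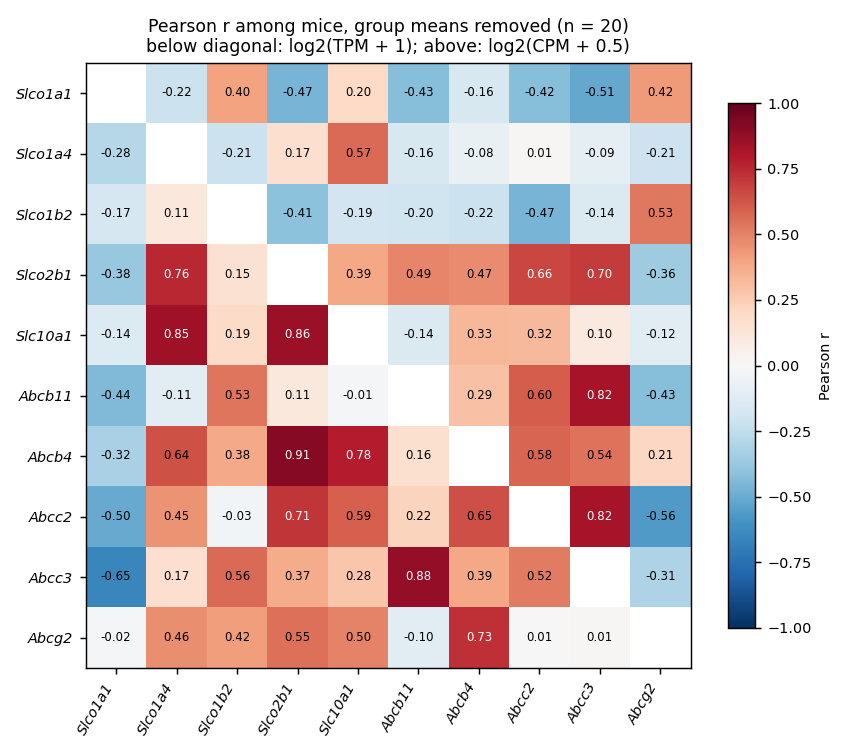
Pearson r between transporters over 20 mice after removal of group means, from log2(TPM + 1) below the diagonal and log2 CPM above it. Abcb11 and Abcc3 are correlated on both scales (0.88 and 0.82), and Slco2b1 and Abcg2 have r of opposite sign on the 2 scales (0.55 and -0.36).

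The genes whose levels followed each transporter most closely among mice were sought over 10554 candidates, by Pearson r of log2(TPM + 1) with group means removed (20 mice, a description). For Slco1a1 they were major urinary protein genes, Mup19 (r = 0.908), Mup11 (0.901) and Mup9 (0.888), with r of 0.927, 0.916 and 0.911 on log2 CPM. Rosuvastatin mouse 5, lowest for Slco1a1, was also lowest for Mup11 at 832 TPM and Mup9 at 21.5 TPM. For Slco1b2 they were Nudt12 (0.761), Mogat1 (0.759) and Ugt2b34 (0.753). For Abcc2 they were Rnf152 (0.983), Vwce (0.973) and Mylk (0.966), with 0.947, 0.933 and 0.896 on CPM. Plxnb2 led for both Abcb11 (0.949) and Abcc3 (0.917), with 0.523 and 0.730 on CPM.

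The remaining carriers were matched by genes whose r fell on CPM, as it did for Plxnb2 and the Abcc2 matches above. Slc10a1 was followed by Atad1 (0.945, and 0.818 on CPM), Gid8 (0.943) and Ak3 (0.936). Slco2b1 was followed by Glb1 (0.978, and 0.791 on CPM), Sf3b2 (0.977) and Afg3l2 (0.974). Slco1a4 was followed by St3gal5 (0.893, and 0.599 on CPM), Wwox (0.890) and Zdhhc6 (0.886), Abcb4 by Agfg2 (0.965, and 0.741 on CPM), Dusp16 (0.957) and Daglb (0.951), and Abcg2 by Smo (0.930, and 0.640 on CPM) and Pid1 (0.870).

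The wider transport and bile acid genes were read in the averaged statin effect, where 51.8% of all genes lay above 0 and 14.4% had an unadjusted p under 0.05. Of the lists that follow, 0 genes passed the test in edgeR or DESeq2. Of 24 other hepatic transporters tested, 10 had an unadjusted p under 0.05, 15 lay above 0 and the median was 0.09 (all genes 0.01). The 3 with the smallest p were Slc22a18 (0.37 ± 0.10), the basolateral exporter Abcc1 (0.66 ± 0.24) and Tmem30a (-0.34 ± 0.13), the partner of the canalicular flippase Atp8b1, each with an adjusted p of 0.327. Of 15 genes of bile acid synthesis and conjugation, 2 had an unadjusted p under 0.05, 9 lay below 0 (48.2% of all genes) and the median was -0.14. Those with the smallest p were Akr1d1 (-0.57 ± 0.18), a steroid reductase of the pathway, Baat (-0.57 ± 0.19), which conjugates bile acids to taurine and glycine, and Scp2 (-0.21 ± 0.11).

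Of 22 nuclear receptors and factors that control the transporters, 1 had an unadjusted p under 0.05, 12 lay above 0 and the median was 0.07. The smallest p belonged to the coactivator Ppargc1a (-0.37 ± 0.17), Hnf4a (0.32 ± 0.17) and the FGF receptor Fgfr4 (0.36 ± 0.19). Of 11 NRF2 targets, 2 had an unadjusted p under 0.05 and 7 lay above 0 (median 0.15), led by Gsta1 (1.43 ± 0.46), Srxn1 (0.24 ± 0.11) and Gclm (-0.18 ± 0.09). Of 10 partners of canalicular membrane and trafficking, 2 had an unadjusted p under 0.05 and 7 lay below 0 (median -0.04), led by Rab11a (-0.39 ± 0.17), Rdx (-0.25 ± 0.11) and Myo5b (0.20 ± 0.18). Of 14 targets of the receptors CAR and PXR, 4 had an unadjusted p under 0.05 and 10 lay below 0 (median -0.04), led by Gstm1 (0.76 ± 0.26), Aldh1a1 (-0.40 ± 0.16) and Sult1d1 (-0.52 ± 0.21). In the averaged effect of GGOH the CAR target Cyp2b10 rose by 2.37 ± 0.35 (adjusted p = 0.0155, edgeR), the 1 gene of that list called by edgeR, while DESeq2 called 2 of the list. This call was lost when any of 6 libraries was left out (vehicle 2, rosuvastatin 2 or 4, GGOH 3 or 4, combination 2), without the 3 libraries that stood apart and with the replicate number as a block. Slco1a4 and Abcc3, transporters also known to respond to these receptors in mice, lay within 1 SE of 0.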

How the data were processed

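Per the labels' protocols, poly(A) RNA was made into TruSeq libraries and sequenced as paired 100-bp reads on a NovaSeq. The submitters' processing notes name kallisto 0.44.0, bcl2fastq 2.19, DESeq2 and the build GRCm38, with no order or role. The authors deposited kallisto estimated counts and TPM per gene, with 34934 entries, 1 of them without a name (0.00801 to 0.0157% of counts, left out). Columns were matched to mice by the library name in the labels. Estimated counts were rounded and tested with edgeR 4.0.16 in R 4.3.3 (quasi-likelihood F test, TMM, low-count filter by group, 1 model of 4 group means over 20 libraries, Benjamini-Hochberg at 0.05; common biological coefficient of variation 0.300). SEs came from the F statistic, and 95% intervals are approximate. The deposited TPM values were used as log2(TPM + 1), with limma 3.58.1, exact permutation of mice and 100000 within-group permutations for relations. DESeq2 1.42.0, other filters and scalings, and left-out libraries were the alternatives. The fits were tested on simulated counts.

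The members and gene lists were chosen with earlier results of these data known. All 10 transporters are named in the text. From each related list the genes past the threshold, or the 3 with the smallest p, are named, and for each transporter the 3 genes of highest r, gene models left out; 1 of the genes so chosen is not reported here. Outside the averaged statin effect, fold changes of the main edgeR model within 1 SE of 0 are not printed. Some of those farther from 0 are also left out, so an absent value need not be within 1 SE. The labels number 5 livers per group without stating that each is from its own mouse; they were taken as such, and p-values measure the spread between these samples. Proteins and the Abcc3 promoter are not used here.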

Additional observations from a re-analysis of the deposited data

Results flagged for a closer look

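Across the 10 transporters and 4 groups, 40 groups of 5 mice were examined for a mouse far from the others, and 2 such mice were found where chance gives about 2 (1 in 20). Slco1b2 was 1973 CPM in combination mouse 4, while the other combination mice lay between 1423 and 1554 CPM. Abcb4 was 239 CPM in rosuvastatin mouse 3, while the other rosuvastatin mice lay between 165 and 186 CPM.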

How the results depend on the processing

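No transporter was called under any of 11 alternatives or when each of 20 libraries was left out in turn. Of 80 transporter values, 35, not all of them printed, lay at least 1 SE from 0. When 1 library was left out, 0 of these changed sign. The other values lay within 1 SE of 0: those of the averaged statin effect are printed and 42 are not. This limit was set after the sign changes had been seen, and 32 of the 42 changed sign under some alternative. Genes called over all 12789, for rosuvastatin against vehicle, the combination against rosuvastatin, the combination against vehicle, the averaged statin effect and the averaged GGOH effect, were 2, 1, 5, 13 and 4 with DESeq2 on the same genes, against 0, 0, 0, 0 and 1 with edgeR. DESeq2 had first been run without the low-count filter, which gave 4, 2, 4, 14 and 4, and 1 for GGOH against vehicle; it was restricted to the kept genes after these counts were seen. For the combination against rosuvastatin and against vehicle, edgeR without the filter called 1 and 1, and limma on log2(TPM + 1) 1 and 1. Limma on log2(TPM + 0.1) and edgeR with a transcript length offset each called 1 for the combination against vehicle. The averaged GGOH effect had 0 calls with the replicate block and 0 without the 3 libraries that stood apart. Leaving out 1 library gave 0 to 2 calls for the averaged GGOH effect (2 without rosuvastatin 1). It gave 0 to 1 for the combination against rosuvastatin (1 without vehicle 4 or rosuvastatin 5) and 0 to 1 for the combination against vehicle (1 without rosuvastatin 3 or 5).

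Signs changed as follows, and the cause was not tested. On log2(TPM + 1) and log2(TPM + 0.1), Abcc3 for GGOH against vehicle became 0.0126 and 0.0130, against -0.27 on counts (-0.16 without the 3 libraries). Abcb11 for the combination against GGOH became -0.20 and -0.21, and -0.20 with the length offset. The averaged statin effects became 0.0198 and 0.0202 for Slc10a1, and 0.0041 and 0.0033 for Abcg2. Without the 3 libraries, Abcc2 and Abcc3 became -0.24 and -0.13 for the combination against rosuvastatin. Abcc2 also became -0.0240 for the combination against vehicle and -0.0695 for the interaction, against 0.36 ± 0.32 and 0.70 ± 0.45 with all libraries. The averaged statin effect on Abcb11 ran from -0.0925 to 0.0438 as 1 library was left out. Relations called fell to 3 on CPM, against 11 on TPM, and r became -0.358 for Slco2b1 and Abcg2 and -0.117 for Slc10a1 and Abcg2. Replicate numbers did not pair the mice: 13 of 30 same-number pairs had r over 0.1 (-0.465 to 0.507), and 5 of 20 libraries matched their own number best. The length offset, the joint removal of 3 libraries and the unfiltered DESeq2 counts were added after seeing the data. With 5 mice a group and SEs of 0.11 to 0.82 in the transporter values printed from the main edgeR model, small differences were not detectable.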
